A study of Mus musculus with 28 samples.

Results

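Jun, Sox2, Pax3, Id1, Id2, Id3, Id4, Zeb2 and Egr3 are transcription regulators that have been grouped as negative regulators of Schwann cell myelination. These 9 genes were taken as a named group, by a rule that holds no measured value, from 41605 gene identifiers counted in a bulk RNA-seq timeline of mouse peripheral nerve. The group was chosen with earlier results of these data known, so its counts beside the shares of all genes are a description only. All 9 passed the filter on low counts, which left 17700 genes in the test. The timeline has 7 stages with 4 libraries each, and it asks how transcripts of the nerve change from the embryo to the young adult.

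All mice were wild-type C57BL/6J, kept without any treatment, and none was perfused. The stages were embryonic days 13 and 17 (E13 and E17, as labelled), postnatal days 1, 5, 14 and 24 (P1, P5, P14 and P24), and P60. Each E13 library held various nerves of a pair of embryos, taken distal to the dorsal root ganglia, and was not stripped of its sheaths. Each E17 library held the sciatic nerves of a pair of embryos, and each postnatal library those of a single mouse. From E17 on, epineurium and perineurium were removed as far as possible, to enrich for endoneurium. The labels name sciatic nerve at every stage, so any comparison with E13 joins age, nerve and dissection, which cannot be told apart. Total counts per library lay between 13899895 and 37662780. Summed markers of neuronal cell bodies, given in CPM (read counts scaled to a common library total), were 1079 to 1983 in the E13 libraries and 23.6 to 35.1 at E17, while those of the Schwann cell list were 341 to 670 and 3436 to 3734. Summed adipocyte markers were at most 0.126 CPM at E17, 1.33 to 41.6 at P14, 5.02 to 211 at P24 and 147 to 416 at P60. Perineurial markers summed to 245 to 284 CPM at E17 and 994 to 1400 at P60. The part of remaining sheath in the levels below was not tested.

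Schwann cells arise from the neural crest, pass through an immature stage, and then either myelinate a single axon or stay unmyelinated around several small axons. The myelin programme is driven by Sox10, Pou3f1 and Egr2, the last of these a zinc-finger factor without which myelin does not form. Jun, Sox2, Pax3 and the Id proteins have each been linked to holding cells in the immature state or to the return to it after injury. Zeb2 is placed in this group by name, although it is best known in Schwann cells as a factor that myelination needs, because it represses inhibitors of differentiation. Egr3 is an activity-induced relative of Egr2, and its part in myelination is less settled.

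Promoter windows, from 250 bases before to 50 bases after each RefSeq start (GRCm38.p6), were at hand for 6 of the 9 genes, and Pax3, Id1 and Egr3 had none. The stretches below are shown because they carry letters tied to the regulators treated here. Capitals in Jun mark an E-box of the form CANNTG and the element TGACATCA, known as a binding site of AP-1, the dimer that Jun itself forms. Capitals in Id2 and Id4 mark GGCGCC, a motif bound by the SMAD proteins of the bone morphogenetic protein (BMP) pathway, to which Id genes respond.
Jun, chr4:95052223-95052422, minus strand: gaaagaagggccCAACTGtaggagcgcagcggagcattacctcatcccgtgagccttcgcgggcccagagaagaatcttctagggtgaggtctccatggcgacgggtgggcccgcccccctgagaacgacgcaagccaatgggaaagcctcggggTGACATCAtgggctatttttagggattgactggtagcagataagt
Id4, chr13:48260916-48261115, plus strand: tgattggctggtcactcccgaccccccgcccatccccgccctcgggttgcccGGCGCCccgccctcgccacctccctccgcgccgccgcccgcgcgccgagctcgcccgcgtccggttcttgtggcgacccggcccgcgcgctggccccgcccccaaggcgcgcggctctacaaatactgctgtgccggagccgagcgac
Id2, chr12:25096306-25096335, minus strand: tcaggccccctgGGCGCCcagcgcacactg
Both strands were searched. TGACATCA, chosen after the Jun sequence was seen, began 45 bases before the start (position -45) in Jun and was found in 3.62% of the 32851 windows of all genes. GGCGCC was in Id2 at -231 and in Id4 at -148, and 11.9% of all windows held it. The window of Id3 held neither of these. TGANTCA, another AP-1 motif, was found only in Zeb2 among these genes, in 1 of its 4 windows at -189 and -132, against 7.81% of all windows. CANNTG was in Jun (-188), Sox2 (-5) and Id2 (-196), and in 72.3% of all windows. CACCTG, the E-box form bound by Zeb2 and itself a case of CANNTG, was in none of these windows (20.2% of all), nor were TGACGTCA (1.79%) and the CArG box (1.63%). A match of letters is no evidence of binding in these nerves.

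All 9 genes changed along the timeline, with an adjusted p under 0.05 and stage means at least 2-fold apart, as did 70.3% of all genes tested. In the fit without the E13 libraries Pax3 did not pass the filter on low counts, and the count was 8. A gene was called between stages if its adjusted p lay below 0.05 and the stages differed 2-fold or more. Of 54 combinations of a gene and an adjacent pair of stages, 18 were called. Pax3 passed the filter through its E13 level, so its differences are given as values further on, and the 8 other genes had 15 calls in 48 combinations. From E13 to E17, 3 of these 8 genes were called higher and 3 lower (14.2% and 21.2% of all genes). From E17 to P1, 0 were called higher and 2 lower (6.31% and 5.41%). From P1 to P5, 0 were called in either direction (4.05% and 1.79%), although 4 of the 9 had an unadjusted p under 0.05, and limma-voom and DESeq2 also called 0. With scaling by library size only, Id2 was called lower at this step (-1.07, adjusted p = 4.89e-07). From P5 to P14, 1 was called higher and 3 lower (7.11% and 4.91%).

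Among the 8 genes, the later steps held 2 calls and 1 call, while the earlier steps had 6, 2, 0 and 4 in order of age. From P14 to P24 none was called higher and 2 were called lower (1.51% and 1.14%), while limma-voom called 3 genes and DESeq2 2. From P24 to P60 the counts were 0 and 1 (2.55% and 3.41%), and limma-voom called 2 genes and DESeq2 1. Over the longer spans, both ends were dissected in the same way, but how fully the sheaths came off was not measured. P14 against E17 gave 1 gene higher and 4 lower (18% and 13.4%). P60 against P14 gave 0 higher and 2 lower (7.1% and 5.81%), and both other tools called 2. The median log2 fold change of the 8 genes was -0.79 for P14 against E17, where the median of all genes was 0, and -0.39 for P60 against P14, where it was -0.02. In whole nerve, fewer cells of a type and less RNA per cell cannot be told apart in any of these changes.

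**Figure D1:**
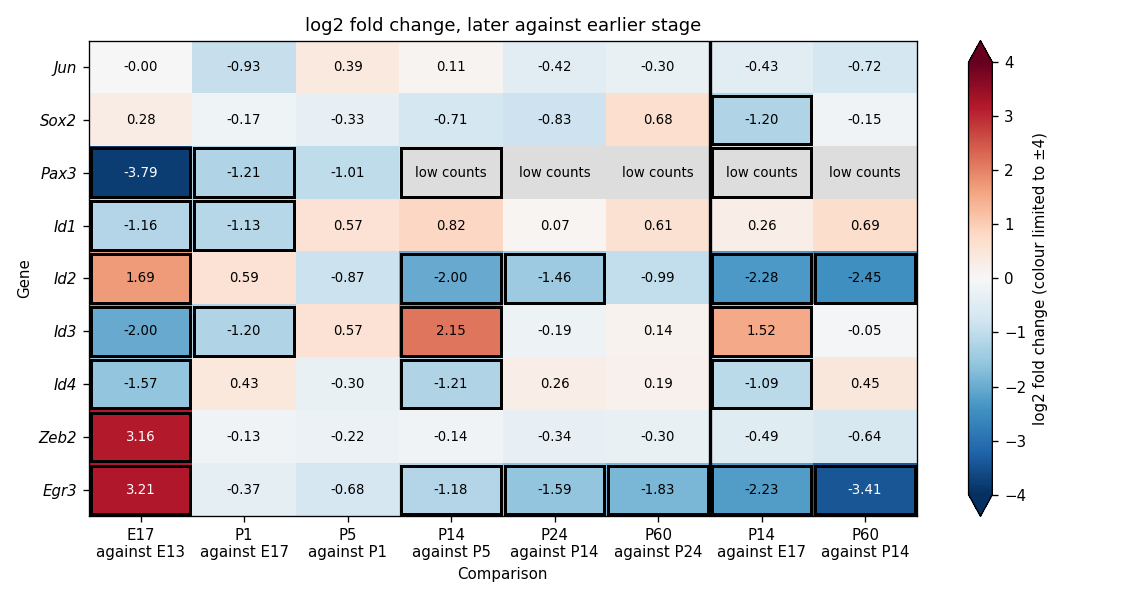
Fitted log2 fold change of each gene (rows) in the 6 adjacent and 2 longer comparisons (columns, later against earlier stage), with called changes outlined. No value is shown for Pax3 in the 5 comparisons with P14, P24 or P60, each of which held at most 2 Pax3 counts in sum, and 2 of these cells carry the outline of a call. The signs of Jun in E17 against E13 and P14 against P5, Id1 in P14 against E17, and Sox2 and Id3 in P60 against P14 turn under another scaling or test. Leaving out Pax3, the outlined cells of the 2 longer comparisons are 5 and 2 in number, and 1 of them, Id3, is a rise.

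Jun encodes the AP-1 subunit that drives the repair state of injured Schwann cells and opposes Egr2. Its transcript (ENSMUSG00000052684, chromosome 4, 95049034 to 95052222, minus strand) was measured at 35.2, 40.9, 40.8 and 49.6 CPM at E13 and at 36.3, 44.4, 43.4 and 41.9 CPM at E17. At P1 the 4 libraries held 19.6, 19.2, 23.8 and 24.1 CPM, all below every embryonic library. The fall from E17 to P1 was -0.93 ± 0.13 (log2 fold change ± SE, adjusted p = 3.56e-06), just under the 2-fold minimum, and it was -1.05 with scaling by library size only.
After P1 the level of Jun was higher at P5 and P14 and lowest on average at P60. The levels were 34.7, 26.9, 26.9 and 25.5 CPM at P5 and 26.4, 27.9, 31.7 and 36.9 CPM at P14, all above those of P1. They were 25.1, 20.3, 23.4 and 22.9 CPM at P24 and 16.88, 18.58, 17.04 and 22.16 CPM at P60. The step from P1 to P5 (0.39, adjusted p = 0.0376) and P60 against P14 (-0.72, adjusted p = 0.000141) passed the p threshold without reaching 2-fold. The first of these did not pass it with scaling by library size only (0.19, adjusted p = 0.286), with either other filter on low counts (adjusted p = 0.0551 and 0.0982), or without P1 replicate 1 or 2 or P5 replicate 1, 2 or 3 (adjusted p from 0.0516 to 0.184, and 0.28 without P5 replicate 1). In the order of stage means, E13, E17, P14 and P5 each overlapped the next, P5 and P24 did not overlap, and P24, P1 and P60 each overlapped the next. An antisense gene, Junos, shares 232 of the 3189 exon bases, with 341 counts in all libraries against 18619 for Jun.

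The partners of Jun were followed as a list of 15 AP-1 subunits and Jun kinases. For P14 against E17, 2 of the 14 tested were called higher and 2 lower (18% and 13.4% of all genes), with a list median of -0.01. Atf3, a stress-induced AP-1 partner, fell from 97.9 ± 9.4 CPM at E17 (SD, n = 4) to 12.6 ± 1.4 CPM at P14 (-2.95 ± 0.18, adjusted p = 1.18e-13). Jdp2, a Jun dimerization partner, rose from 14.4 ± 1.8 to 34.8 ± 4.6 CPM (1.28 ± 0.24, adjusted p = 6.2e-05). Among 8 genes that Jun supports in repair cells, 0 were called higher and 4 lower, against 18% and 13.4% of all genes, but the call of Bdnf has no weight, since it was above 1 CPM at E13 alone and had 0 counts at P14. The neurotrophic ligand Artn fell from 12.2 ± 0.9 to 0.131 ± 0.082 CPM (-6.43 ± 0.52), and Ngfr, the low-affinity neurotrophin receptor, from 543.6 ± 37.1 to 82.9 ± 8.5 CPM (-2.71 ± 0.16). Jun itself differed by -0.43 over the same span (adjusted p = 0.0064). From P14 to P60, where Jun differed by -0.72, Lif rose from 2.90 ± 0.20 to 10.8 ± 0.5 CPM (1.89 ± 0.23) and Ngfr fell further (-1.19 ± 0.15). Shh and Bdnf were also called higher, but from 0 counts at P14 to means of 1.01 and 0.245 CPM. Atf3 also rose, to 29.7 ± 8.0 CPM (1.23 ± 0.17, adjusted p = 3.67e-06). Because Jun is also an immediate early gene that handling of tissue can induce, the summed CPM of 13 other such genes were read beside it. The E13 libraries had 131 to 145 and the E17 libraries 331 to 424, those of P1 had 225 to 345 and those of P5 153 to 194. The P14, P24 and P60 libraries had 208 to 241, 234 to 272 and 333 to 344, and their part in the levels of Jun was not tested. At E17 the sum was mostly Nr4a1 (213.8 ± 28.5 CPM) and Atf3, and the list did not follow its sum. Its median was -0.45 for E17 against E13, with 2 genes higher and 1 lower (14.2% and 21.2% of all genes). For P14 against E17 it was 0.79, with 5 higher and 3 lower (18% and 13.4%).

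Sox2 is a factor of the immature Schwann cell that represses myelin genes. Its gene (ENSMUSG00000074637, chromosome 3, 34650405 to 34652461, plus strand) lies in an intron of the non-coding gene Sox2ot, with 0 shared exon bases. The levels were 21.2, 12.15, 13.87 and 16.95 CPM at E13, 19.1, 19.6, 19.9 and 19.5 CPM at E17, and 17.3, 17.4, 18.6 and 16.4 CPM at P1. At P5 the 4 libraries held 13.3, 15.7, 12.1 and 14.5 CPM, below those of E17 and P1.
All later libraries were lower than every library of E17, P1 and P5. They held 8.2, 7.4, 8.6 and 9.6 CPM at P14, 3.9, 7.3, 4.4 and 3.4 CPM at P24, and 8.6, 7.8, 7.2 and 7.0 CPM at P60. Sox2 fell by P14 relative to E17 (-1.20 ± 0.18, adjusted p = 1.52e-06). No single adjacent step was called by edgeR, although P14 against P5 (-0.71, adjusted p = 0.00263) and P24 against P14 (-0.83, adjusted p = 0.00504) passed the p threshold. P24 replicate 2, at 7.3 CPM, was the highest of its stage, and without it P24 against P14 was called (-1.11, adjusted p = 9.57e-05). With limma-voom this step was called on all libraries (-1.03, adjusted p = 1.04e-05). The lowest mean was at P24, and P60 against P24 was 0.68 (adjusted p = 0.0115), or 0.54 without P24 replicate 4 (adjusted p = 0.0631).

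The ratio of Jun or Sox2 to Egr2 counts within a library does not depend on the scaling of libraries. Egr2 rose from 1.43 ± 0.28 CPM at E13 through 26.97 ± 5.52 CPM at E17 to 270 ± 51 CPM at P1, and was 181 ± 16 CPM at P14. The log2 ratio of Jun to Egr2 was 4.86 ± 0.37 in E13 nerves (SD, n = 4), 0.64 ± 0.22 in E17, -3.62 ± 0.25 in P1 and -2.57 ± 0.15 in P14. That of Sox2 to Egr2 was 3.46 ± 0.38, -0.44 ± 0.30, -3.93 ± 0.32 and -4.42 ± 0.04 at the same stages. From E17 to P14 the means fell by 3.21 and 3.98 on the log2 scale, the libraries did not overlap, and both gave p = 0.0286 by the two-sided exact permutation test, the smallest that 4 against 4 libraries allow (adjusted p = 0.0286 over 8 ratios). The fitted log2 fold changes over this span were 2.75 for Egr2, -0.43 for Jun (not called) and -1.20 for Sox2. The larger part of both falls is thus the rise of Egr2.

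**Figure D2:**
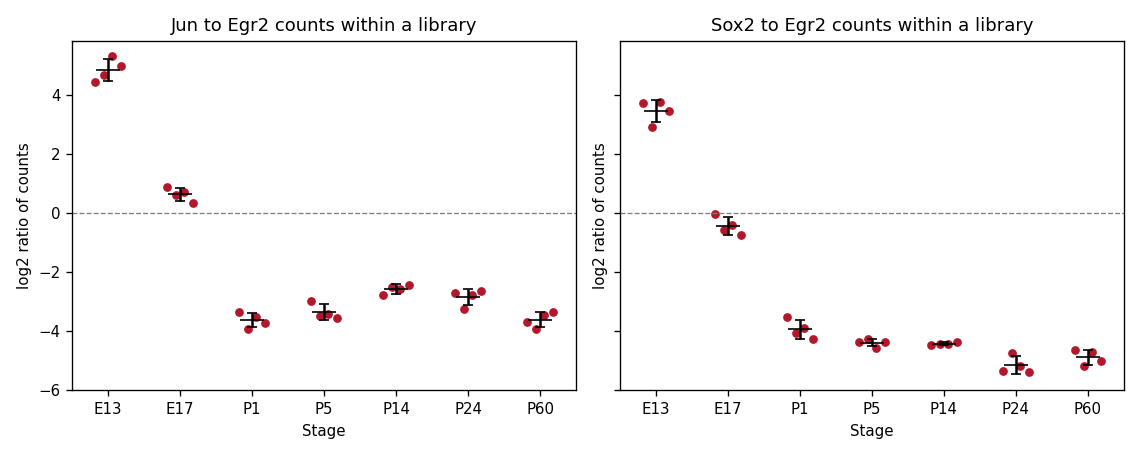
Log2 ratio of Jun (left) and Sox2 (right) to Egr2 counts in each library (points) by stage, with bars for mean ± SD of 4 libraries and a dashed line at equal counts. Both ratios lie above 2 in every E13 library and below -2 in every library from P1 to P60.

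Pax3 is a paired-box factor of the neural crest and its early derivatives. Its gene (ENSMUSG00000004872, chromosome 1, 78101267 to 78197134, minus strand) was measured almost entirely at E13, at 8.8, 6.2, 6.6 and 6.3 CPM. At E17 the libraries held 0.7, 0.5, 0.3 and 0.6 CPM. Summed over the 4 libraries of a stage, the E13 libraries held 721 counts and the E17 libraries 38. The sums were 24 and 11 for P1 and P5, then 1, 2 and 0 for P14, P24 and P60.
The pooled counts scaled to library size gave a ratio of E13 to E17 of 14.7 (95% exact interval 10.6 to 21.0), and the fitted log2 fold change was -3.79 ± 0.39. The ratio of E17 to P1 was 2.23 (1.31 to 3.89), that of P5 to P14 was 8.85 (1.29 to 381), and that of E17 to P14 was 42.5 (7.17 to 1721), all of which rest on few counts and cover counting error only. Pax3 passed the filter on low counts only through E13, and without that stage it was not tested, so no weight rests on the calls of these comparisons or of E17 against E13. For P1 against E17 (adjusted p = 0.0444) the call was lost when any of 10 libraries was left out (E13 replicates 2 and 3, E17 replicates 1, 2 and 4, P1 replicates 1, 2 and 3, P5 replicate 1 and P24 replicate 4; adjusted p up to 0.133) and with no filter on low counts (adjusted p = 0.0902). For P14 against P5 (adjusted p = 0.0269) it was lost without P5 replicate 3 or 4 or P14 replicate 2, 3 or 4 (adjusted p up to 0.0859). Pax3 also marks muscle progenitors and melanocytes. Summed skeletal muscle markers were 18.6 to 299 CPM at E13 and 2.87 to 11.6 at E17, and melanocyte markers were 4.27 to 10.2 and 3.34 to 4.90, with Tyr at 0 at both stages. Neuronal cell body markers, the largest of these sums, were 1079 to 1983 CPM at E13 and 23.6 to 35.1 at E17. The part of any of these cells in the Pax3 level was not tested.

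**Figure D3:**
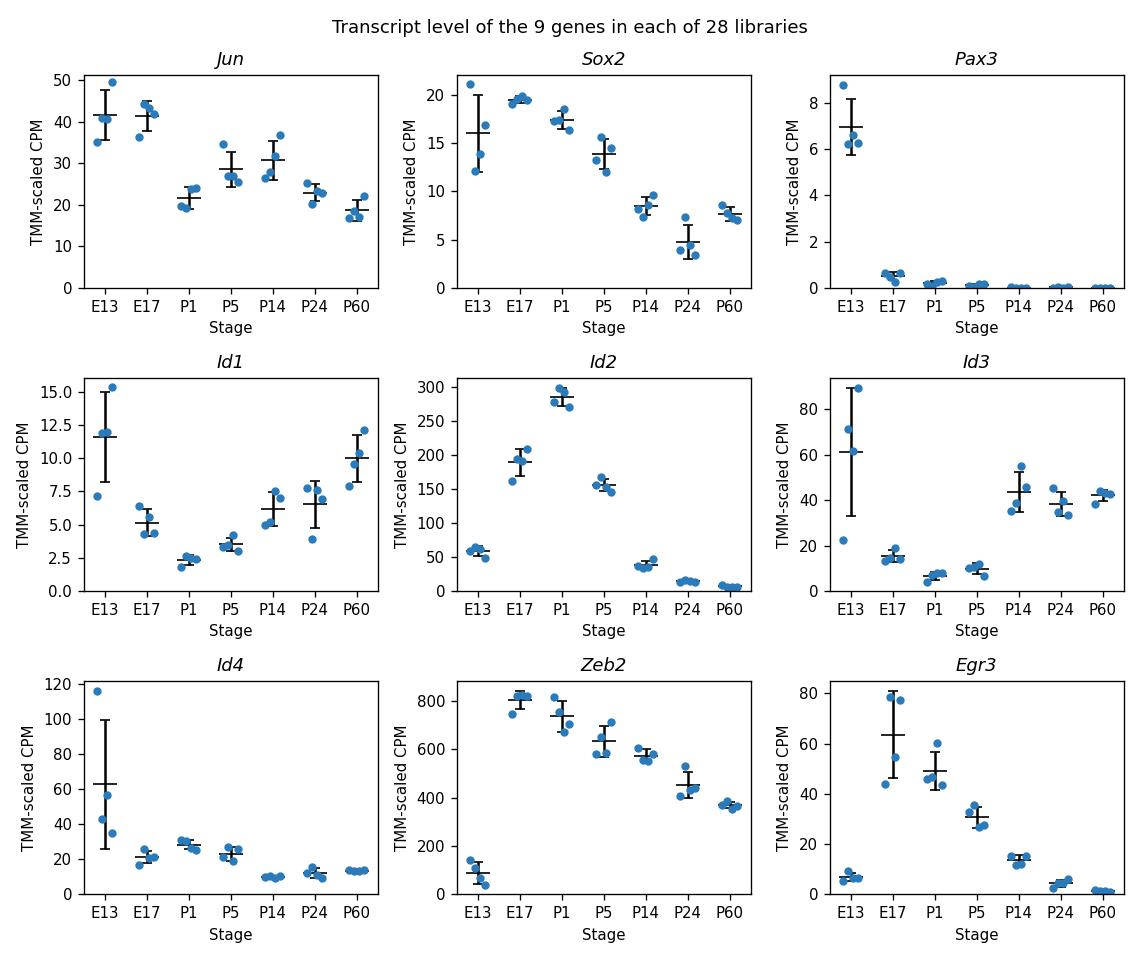
TMM-scaled CPM (linear axes that start at 0) of the 9 genes in each of 28 libraries (points) by stage, with bars for mean ± SD of 4 libraries. Id2 is highest at P1, at 270 to 298 CPM, and Pax3 lies at 6.2 to 8.8 CPM at E13 and under 1 CPM in every later library.

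The Id proteins are helix-loop-helix proteins without a DNA-binding region. They pair with the E proteins (Tcf3, Tcf4 and Tcf12) and so keep these from activating genes of differentiation. The 4 Id genes of this nerve did not change together: Id2 and Id4 fell from E17 to P14 while Id3 rose, and Id1 was not called.

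Id2 (ENSMUSG00000020644, chromosome 12, 25093799 to 25097140, minus strand) had the widest course of the 4. It was at 58.4, 65.2, 61.9 and 48.9 CPM at E13, at 162, 194, 191 and 209 CPM at E17, and at 278, 298, 293 and 270 CPM at P1. At P5 the 4 libraries held 156, 167, 152 and 146 CPM, all below P1 (-0.87, adjusted p = 6.85e-06). After that every stage lay apart from the one before. The values were 37.5, 34.5, 35.7 and 47.5 CPM at P14, 13.5, 16.3, 14.2 and 12.6 CPM at P24, and 9.4, 6.4, 6.2 and 6.5 CPM at P60. The rise from E13 to E17 (1.69 ± 0.12, adjusted p = 5.81e-12) and the falls from P5 to P14 (-2.002 ± 0.126, adjusted p = 3.9e-12) and from P14 to P24 (-1.46 ± 0.13, adjusted p = 5.34e-08) were called. The last step, -0.99 from P24 to P60 (adjusted p = 5.28e-06), lay just under 2-fold in edgeR. It was called by limma-voom (-1.0011, adjusted p = 4.01e-05), and by edgeR without P24 replicate 1 (-1.02), P24 replicate 4 (-1.05) or P60 replicate 1 (-1.15). P60 against P14 was -2.45 ± 0.14 (adjusted p = 1.71e-13).

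Id3 (ENSMUSG00000007872, chromosome 4, 136143497 to 136145755, plus strand) moved opposite to Id2 up to P14. It was at 22.4, 71.2, 61.7 and 89.4 CPM at E13, 13.36, 14.42, 19.13 and 14.01 CPM at E17, and 3.9, 7.1, 7.8 and 7.8 CPM at P1. The P5 libraries held 10.3, 10.6, 11.9 and 6.6 CPM, which overlapped P1. From P14 on the level was above every library of E17, P1 and P5, with 35.3, 38.6, 55.0 and 45.8 CPM at P14, 45.4, 35.0, 39.6 and 33.4 CPM at P24, and 38.4, 44.0, 43.2 and 42.8 CPM at P60. Id3 fell from E13 to E17 (-2.0001 ± 0.28, adjusted p = 5.42e-07) and from E17 to P1 (-1.20 ± 0.28, adjusted p = 0.00156), and rose from P5 to P14 (2.15 ± 0.28, adjusted p = 9.88e-07).

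Id1 (ENSMUSG00000042745, chromosome 2, 152736251 to 152737410, plus strand) had the lowest mean RPKM (CPM per kilobase of exon) of the 4 from E13 to P5. It was at 7.2, 11.9, 12.0 and 15.4 CPM at E13, 6.4, 4.3, 5.5 and 4.3 CPM at E17, and 1.8, 2.7, 2.5 and 2.5 CPM at P1. The later values were 3.3, 3.5, 4.2 and 3.0 CPM at P5, 5.0, 5.2, 7.6 and 7.0 CPM at P14, 7.7, 3.9, 7.6 and 6.9 CPM at P24, and 7.9, 9.6, 10.4 and 12.1 CPM at P60. The P1 libraries were thus the lowest, and those of P60 overlapped E13. The falls from E13 to E17 (-1.16 ± 0.23, adjusted p = 7.31e-05) and from E17 to P1 (-1.13 ± 0.23, adjusted p = 0.000525) were called, the first of these not without E13 replicate 4 (-0.999). P14 against P5 (0.82, adjusted p = 0.00732) and P60 against P14 (0.69, adjusted p = 0.0209) passed the p threshold only, the latter not without P14 replicate 1 or 2 or P60 replicate 4 (adjusted p from 0.0707 to 0.0829). P14 against E17 was 0.26 (adjusted p = 0.335), and -0.23 with scaling by library size only.

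Id4 (ENSMUSG00000021379, chromosome 13, 48261228 to 48266026, plus strand) was at 116.5, 43.2, 56.9 and 35.2 CPM at E13, and at 16.9, 25.7, 20.6 and 21.6 CPM at E17. The P1 and P5 libraries held 31.1, 30.5, 26.7 and 25.6 CPM and 21.1, 26.8, 18.8 and 25.6 CPM. All later libraries were below these, at 9.7, 10.5, 9.4 and 10.3 CPM at P14, 12.0, 15.7, 11.0 and 9.1 CPM at P24, and 13.8, 13.6, 13.1 and 13.8 CPM at P60. Id4 fell from E13 to E17 (-1.57 ± 0.24, adjusted p = 2.42e-06) and from P5 to P14 (-1.21 ± 0.24, adjusted p = 0.000326). P14 against E17 was -1.09 ± 0.24 (adjusted p = 0.000403), which was under 2-fold without E17 replicate 2 (-0.97).

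The E13 libraries were spread widely for several of these genes. E13 replicate 1 was the highest of its stage for Zeb2, Id4, Pax3 and Sox2, whose exons hold 40.6%, 42.6%, 48.5% and 50.5% GC, and the lowest for Egr3, Id1, Jun and Id3, at 51.3%, 54.7%, 55.5% and 55.6%. For Id2, at 45.1%, it was neither. Without this library, E17 against E13 was -1.35 for Id1, -2.29 for Id3, -1.10 for Id4 and 3.47 for Zeb2, all called, while Sox2 went from 0.28 (adjusted p = 0.153) to 0.43 (adjusted p = 0.0227). With each library's GC trend about its stage mean removed, E17 against E13 was -1.11 for Id1, -1.88 for Id3, -1.44 for Id4 and 3.31 for Zeb2, but this removal leaves the stage means nearly in place by construction, and the part of GC content in the stage differences was not tested.

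Compared per length, in RPKM, the make-up of the family turned over. Id2 made up 28.7% of the summed RPKM of the 4 genes at E13, 80.7% at E17 and 89.9% at P1. Its share was still 81.5% at P5, but 33.2% by P14, 16.3% by P24 and 7.65% by P60. Id3 had 39.2% at E13, 2.85% at P1, 50.4% at P14 and 61.0% at P60. The sum of the 4 levels was 84.5 ± 8.3 RPKM at E13, 129.9 at P1, 48.2 at P14 and 38.6 at P60. Within libraries, the log2 ratio of Id2 to Id3 fell by 3.802 between E17 and P14, that of Id2 to Id4 fell by 1.22, and that of Id1 to Id3 fell by 1.25. The ratios of Id1 to Id2, Id3 to Id4 and Id1 to Id4 were higher by 2.55, 2.58 and 1.33. In all 6 the libraries of the stages did not overlap, with p = 0.0286 by the two-sided exact permutation test.

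**Figure D4:**
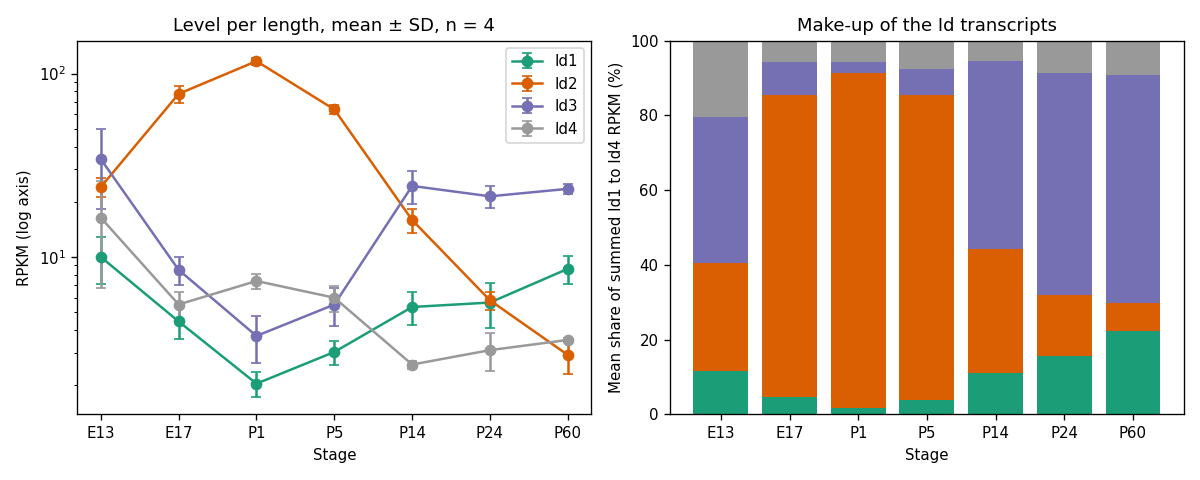
Left, mean ± SD RPKM of the 4 Id genes by stage on a log axis (n = 4). Right, each gene's mean share of their summed RPKM in percent. Id2 holds 89.9% of the sum at P1 and 7.65% at P60, and Id3 holds 2.85% and 61.0%.

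The partners and inducers of the Id proteins were counted as lists. None of the 3 E protein genes was called for P14 against E17 (0 higher and 0 lower, against 18% and 13.4% of all genes). Their median was -0.81, and their summed level was 342 to 355 CPM at E17 and 224 to 238 CPM at P14. The 19 BMP ligands, receptors, SMADs and antagonists had 2 genes higher and 9 lower from E13 to E17 (14.2% and 21.2% of all genes), 0 and 3 from E17 to P1 (6.31% and 5.41%), and 2 and 0 from P1 to P5 (4.05% and 1.79%). They had 5 and 0 from P5 to P14 (7.11% and 4.91%), 2 and 0 from P14 to P24 (1.51% and 1.14%), and 0 and 1 from P24 to P60 (2.55% and 3.41%). Id3 was called from E13 to E17, from E17 to P1 and from P5 to P14, and the part of the BMP pathway in the Id levels was not tested. For P14 against E17 the list had 5 higher and 0 lower (18% and 13.4% of all genes) with a median of -0.12, and for P60 against P14 it had 4 and 1 (7.1% and 5.81%). The ligand Bmp7 stood at 44.5 ± 7.1 CPM in E13 nerves, 6.51 ± 0.58 in E17, 7.71 ± 2.03 in P1 and 25.6 ± 1.6 in P5. It reached 102.6 ± 12.0 CPM at P14 and 160 ± 22 CPM at P60, and rose from E17 to P14 by 3.98 ± 0.17 (adjusted p = 2.96e-17). Acvrl1, a type I receptor of endothelium, was at 11.3 ± 3.7 CPM at E13 and 29.3 ± 0.9 CPM at E17. It was thus higher after the step at which Id1 and Id3 fell. Acvrl1 then fell from E17 to P1 (to 9.52 ± 1.86 CPM, -1.62 ± 0.19) and rose from P5 to P14 (13.8 ± 2.0 to 30.3 ± 2.6 CPM, 1.13 ± 0.19). It was named after its values were seen. Id1 and Id3 are strongly expressed in vessels, and the summed CPM of 7 endothelial markers was 319 to 382 in E17 libraries, 184 to 211 in those of P1 and 251 to 293 in those of P5. It was 325 to 405 by P14 and 440 to 492 by P60. The part of vessels in the Id1 and Id3 levels was not tested. At E13, where both Id genes were highest on average, the endothelial sum was 186 to 243 CPM.

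Zeb2 had the highest CPM of the 9 genes from E17 on, but also the longest exons. Per length it was at 40.3 ± 1.9 RPKM at E17 (SD, n = 4), below Id2 at 77.5 ± 8.0 RPKM. At P14 it had the highest RPKM mean of the 9, at 28.8 ± 1.3 against 24.4 ± 4.9 for Id3, and at P60 it was at 18.5 ± 0.6 against 23.5 ± 1.4 for Id3. This zinc-finger and homeodomain repressor (ENSMUSG00000026872, chromosome 2, 44983632 to 45117395, minus strand) was at 141.9, 109.8, 69.1 and 38.0 CPM at E13. At E17 the libraries held 748, 821, 827 and 822 CPM, a rise of 3.16 ± 0.23 (adjusted p = 3.52e-12). No later step was called.
The level was nevertheless lower at each later stage mean. It was 817, 754, 671 and 706 CPM at P1, 582, 653, 585 and 713 CPM at P5, and 607, 554, 551 and 582 CPM at P14. It was 407, 530, 433 and 442 CPM at P24 and 368, 386, 355 and 364 CPM at P60. Neighbouring stages overlapped from E17 to P14, while P24 lay below P14 and P60 below P24. P60 against P14 was -0.64 (adjusted p = 0.0221), which did not pass with scaling by library size only (-0.46, adjusted p = 0.11) or without P14 replicate 1 (adjusted p = 0.0502) or P60 replicate 3 (adjusted p = 0.0528). The antisense gene Zeb2os shares 653 of the 19942 exon bases, with 5056 counts against 332873 for Zeb2.
Zeb2 is also known in macrophages, whose 5 markers summed to 309 to 400 CPM at E13 and 86.4 to 101 CPM at E17. The 6 Schwann cell markers were all called higher at that step, as were 4 of 5 fibroblast markers and 14.2% of all genes. The part of any of these cells in the Zeb2 level was not tested.

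Egr3 (ENSMUSG00000033730, chromosome 14, 70077203 to 70082614, plus strand) was called lower at each step from P5 to P60. It was at 5.2, 9.3, 6.4 and 6.6 CPM at E13, 43.8, 78.6, 54.5 and 77.4 CPM at E17, and 45.8, 46.8, 60.3 and 43.7 CPM at P1. All E17 and P1 libraries were above those of every other stage. The levels were then 32.8, 35.4, 26.8 and 27.6 CPM at P5 and 15.1, 11.8, 12.0 and 15.3 CPM at P14. They were 2.7, 4.5, 4.5 and 6.0 CPM at P24 and 1.7, 1.2, 1.1 and 1.1 CPM at P60, each stage from P5 on lying below the one before.
The rise from E13 to E17 was 3.21 ± 0.22 (adjusted p = 9.18e-13). The falls were -1.18 ± 0.20 from P5 to P14 (adjusted p = 5.19e-05), -1.59 ± 0.21 from P14 to P24 (adjusted p = 2.15e-05) and -1.83 ± 0.26 from P24 to P60 (adjusted p = 1.09e-05), and P60 against P14 was -3.41 ± 0.25 (adjusted p = 5.39e-11).
Among its relatives, Egr2 rose from E17 to P14 (2.75 ± 0.16, adjusted p = 4.75e-14), Egr1 fell (-1.71 ± 0.39, adjusted p = 0.000595), and Egr4 was at 0 in every library from E13 to P60. Among all 9 close relatives of these genes, 1 of 8 tested was called higher and 2 lower for P14 against E17 (18% and 13.4% of all genes). Of the 13 immediate early genes, to which Egr3 is akin, 5 were called higher and 3 lower against the same shares. The 5 T-cell markers summed to at most 1.88 CPM in any library, and the part of T cells, which can use Egr3, was not tested.

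Further lists were read beside the 9 genes. Of 13 positive regulators of myelination, 2 were called higher and 2 lower for P14 against E17 (18% and 13.4% of all genes), with a median of -0.31. Egr2 had the largest change, followed by its corepressor Nab1, which rose from 28.6 ± 1.9 to 128.9 ± 5.8 CPM (2.17 ± 0.22, adjusted p = 3.4e-09). Of 11 other described brakes on myelination, such as Notch signalling genes, 0 were called higher and 5 lower against the same shares, with a median of -0.77. The endothelin receptor Ednrb fell from 2236 ± 81 CPM at E17 to 138 ± 18 CPM at P14 (-4.01 ± 0.18, adjusted p = 1.94e-16).
The lists of cell markers were counted in the same way, with 18% of all genes higher and 13.4% lower for P14 against E17. All 4 proliferation markers were called lower, with summed levels of 2041 to 2129 CPM at E17, 107 to 143 at P14 and 3.79 to 5.27 at P60. The number called higher was 3 of 6 for Schwann cells, 1 of 7 for endothelium, 3 of 5 for pericytes and smooth muscle, 2 of 5 for fibroblasts, 2 of 4 for perineurial cells, 1 of 5 for macrophages, 4 of 4 for adipocytes and 3 of 4 tested for melanocytes. Lower were 5 of 9 neuronal and 1 of 6 tested skeletal muscle markers, and the 1 T-cell marker tested was higher. The part of these cells in the falls of Id2, Egr3 and Sox2 was not tested.

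By Pearson correlation of log2 CPM over the 28 libraries, which shares stage as its main source of variation, each gene had close companions outside the group. The 3 closest were Itgb1 (r = 0.994), Samd5 and Rab8b for Zeb2, Itgb3 (0.990), Igsf9b and Mcam for Egr3, and Srgap1 (0.984), Igf2bp2 and Ints14 for Id2. They were Pbx3 (0.982), Nwd2 and Fgf13 for Pax3, Cdk20 (0.964), Apcdd1 and Sema3f for Id3, and G3bp2 (0.956), Nkain3 and Cntnap4 for Id4. For Id1 they were Rgma (0.938), Pygb and Arhgef15, for Sox2 Sfpq (0.923), Snhg1 and Hs6st2, and for Jun Mirg (0.881), Dnajb1 and Spef1. Within the group, the highest values were 0.950 for Id2 with Egr3 and 0.909 for Id1 with Id3, and Id2 with Id3 gave -0.756.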

How the data were processed

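The authors aligned single-end reads of stranded poly-A libraries (GRCm38.p5, STAR 2.6.1c and featureCounts in the submitters' notes, whereas the methods name a human build) and deposited raw read counts per gene, not normalized. Strand use and treatment of multi-mapping reads in counting are not given in the sources used here, so antisense overlaps are uncertain. Of 41605 identifiers, 41519 matched GENCODE M21 (GRCm38), the source of symbols and 1-based coordinates.

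Genes were filtered with filterByExpr and scaled by TMM. A single quasi-likelihood model with stage as its term was fitted to all 28 libraries (edgeR 4.0.16, R 4.3.3), and p-values were adjusted by Benjamini-Hochberg over 17700 genes. The SE is the log2 fold change over the square root of F. Fitted fold changes use edgeR's default prior count, and log2 CPM for correlations a prior count of 2. On simulated counts for P14 against E17 with 200 genes changed by 2 on the log2 scale, 200 were recovered with 1 false call among 16025 genes. The changed genes were drawn from well-expressed genes only, every gene had the same dispersion of 0.044, and no other gene differed between stages. The recovery thus does not cover genes as low as Id1 or Pax3, or the real spread of single genes. Ratios are log2 of counts plus 0.5 within a library. Pooled Pax3 counts were compared with exact 95% intervals. These cover counting error only, since pooling the 4 libraries of a stage leaves out the spread between them. The reads carry no molecular identifiers, so read counts are not counts of molecules. Depth (13899895 to 37662780 counts) limits Pax3 after E17. The study describes the 4 libraries of a stage as separate samples, 2 from males and 2 from females. The labels do not give the sex of a library, so sex was not a term of the model. Its part in the spread within stages was not tested.

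The members and lists were chosen with earlier results of these data known. The lists were positive regulators, other brakes, AP-1 partners and Jun kinases, repair genes, E proteins, BMP pathway, close relatives, immediate early genes and markers of 12 cell types or states. From each pathway list the 2 called genes with the largest change for P14 against E17 and at least 10 CPM were named, as were the 3 genes most correlated with each member (mean of at least 1 CPM, no clone names). Alternatives were DESeq2 (1.42.0) size factors and Wald test, limma-voom (limma 3.58.1), library size only, other filters, thresholds, stages in the fit, a replicate block, GC trend removal, 5 counts added to ratios, and each library left out.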

Additional observations from a re-analysis of the deposited data

Results flagged for a closer look

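Of 63 combinations of a gene and a stage, the 3 of Pax3 at P14, P24 and P60 had at most 3 counts in any library and were not checked. In the others, 4 of 60 groups of 4 libraries had a library whose gap to its nearest neighbour was a larger part of the range than Dixon's 95% limit for 4 values, where chance flags about 1 in 20. Jun was at 34.7 CPM in P5 replicate 1, against 25.5 to 26.9 CPM in the others. Pax3 was at 8.78 CPM in E13 replicate 1, against 6.22 to 6.61 CPM. Id2 was at 9.43 CPM in P60 replicate 1, against 6.22 to 6.47 CPM, and without this library P60 against P24 was -1.15 in place of -0.99. Zeb2 was at 747.6 CPM in E17 replicate 1, against 820.8 to 826.9 CPM.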

How the results depend on the processing

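Over all 9 genes, Pax3 included, 18 changes were called over adjacent stages, 6 for P14 against E17 and 2 for P60 against P14. Without Pax3 these counts are 15, 5 and 2. Under other settings the counts over all 9 genes stayed within 1.5 times their main values, with 1 exception. Without a fold minimum 28 adjacent changes and 5 for P60 against P14 were called. With scaling by library size only, which moved the median of all genes by -0.48 for P14 against E17, 4 values turned sign: Jun P14 against P5 (-0.0674), Id1 P14 against E17 (-0.23), Sox2 P60 against P14 (0.0314) and Id3 P60 against P14 (0.13). Jun E17 against E13 lay at 0 and gave 0.0179 without the filter, 0.0235 with limma-voom, 0.0007 with the compared stages only and 0.0038 with the replicate block. With each library left out it ranged from -0.0897 to 0.0901, Id1 P24 against P14 from -0.0168 to 0.2522, and Id3 P60 against P14 from -0.1465 to 0.0726.

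Leaving out libraries also gave ranges for the 8 ratios of P14 to E17, where 3 against 4 libraries cannot give an exact p under 0.0571: Jun to Egr2 -3.31 to -3.13, Sox2 to Egr2 -4.08 to -3.85, Id1 to Id2 2.41 to 2.73, Id1 to Id3 -1.33 to -1.08, Id1 to Id4 1.15 to 1.54, Id2 to Id3 -3.91 to -3.65, Id2 to Id4 -1.30 to -1.14 and Id3 to Id4 2.44 to 2.71. Replicate numbers were not taken as pairs: same-numbered libraries of different stages correlated at -0.202 to 0.571 in their deviations from stage means (84 pairs, 33 over 0.1), and 17 of 28 libraries correlated best with their own number. The replicate block gave 18, 6 and 2 calls with Pax3 included. Paired differences in the ratios have the same means by arithmetic (-3.21, -3.98, 2.55, -1.25, 1.33, -3.802, -1.22 and 2.58, in the order above), and 4 pairs cannot give an exact permutation p under 0.125. Fits of the compared stages only exist for pairs, and fits without E13 give no E17 against E13. Depth limits Pax3 after E17.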
